A study of Rattus norvegicus with 2 samples.

Results

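The smooth muscle contractile genes studied here encode the actin, myosin and actin-binding proteins that mark differentiated smooth muscle. The set holds 10 genes listed by symbol (Acta2, Actg2, Tagln, Cnn1, Myh11, Lmod1, Synpo2, Smtn, Cald1 and Myl9), and 9 of them had a probe set with that symbol among the 16592 named genes of the value table. Acta2, the gene of alpha smooth muscle actin, was not analysed here. Gene expression was measured in cultured neonatal rat ventricular myocytes, primary heart muscle cells from newborn pups, on 2 one-colour Affymetrix arrays. The pups were 1 to 2 days old, and their strain and sex are not stated in the sources used here. The cells recovered for 24 hours in medium with 10% serum and then went into a low-serum medium. Cells of both arrays were infected with an adenovirus encoding a short hairpin RNA (shRNA), and RNA was taken after 3 days. The hairpin was directed at Mef2d for one array (the Mef2d-labelled array) and at the bacterial gene lacZ, as negative control, for the other (the lacZ-labelled array). The design text describes each array as a pool of 6 biological replicates, whereas the extraction notes speak of 3 replicates per condition after pooling and of myotubes, and this was not resolved.

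Smooth muscle contracts when myosin light chain kinase phosphorylates the regulatory light chain, which lets smooth muscle myosin pull on filaments of smooth muscle actin. Calponin and caldesmon bind those filaments and restrain myosin's activity. Many of the genes are controlled by serum response factor (SRF), which binds a DNA element called the CArG box, together with its coactivators myocardin and the myocardin-related factors. Several of them, including the genes of alpha smooth muscle actin and transgelin, are also active in immature heart muscle and in activated fibroblasts, so they mark no single cell type in a ventricular culture. MEF2D belongs to a family of transcription factors that bind A/T-rich sites in muscle genes.

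The CArG box is shown here from the promoters of Srf itself and of a muscle actin gene, beside the stretch of the Acta2 promoter that holds near-matches. The sequences are RefSeq's, build GRCr8, written in the gene's direction. Capitals mark exact letter matches to the CArG box in Srf and Acta1. In Acta2 they mark the elements that depart from the box by 1 C or G in its A/T core. The distinction goes by letters only, and binding of SRF to either kind was not tested.
Srf, chr9:21923975-21924044, plus strand, from 101 to 32 bases before the start: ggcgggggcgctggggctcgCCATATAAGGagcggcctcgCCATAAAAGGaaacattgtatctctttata
Acta1, chr19:68784259-68784308, minus strand, from 114 to 65 bases before the start: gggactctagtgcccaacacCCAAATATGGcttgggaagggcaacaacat
Acta2, chr1:241172558-241172657, minus strand, from 154 to 55 bases before the start: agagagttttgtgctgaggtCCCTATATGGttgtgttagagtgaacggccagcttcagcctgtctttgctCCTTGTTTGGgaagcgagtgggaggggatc

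Of the 9 measured genes, 5 had a promoter window in the RefSeq table (Actg2, Cnn1, Synpo2, Smtn and Cald1, the last with a pair of starts). None of their 6 windows, each from 250 bases before the start to 50 after it, held a CArG box, a near-match with 1 C or G in the core, or a MEF2 site. Among all 33469 windows a CArG box was found in 1.64%, a near-match in 8.10% and a MEF2 site in 3.29%. Each element reads the same on both strands, and the CArG box and its near-match cannot be the same 10 bases. These are matches of letters in a short window and say nothing of elements outside it.

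All levels are on the log2 scale, as RMA gives them, and a difference is the Mef2d-labelled level minus the lacZ-labelled level. With 1 array per condition there is no replicate error and no p-value, so every difference describes these arrays. A level filter at the 30th percentile of named genes (log2 4.85) kept 11614 genes, and all 9 measured smooth muscle genes passed it. As a yardstick, a difference is also given in robust SDs (scaled median absolute deviations) from the centre of genes of similar level, which is a scatter between genes and not between replicates. Over the 11614 genes the median difference was -0.01, and 51.7% were below 0. The targeted gene went against its label, since Mef2d stood at 8.22 on the lacZ-labelled array and at 8.94 on the Mef2d-labelled array. The arrays are therefore called by their labels, and every direction would turn if the labels were exchanged.

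The 9 measured smooth muscle contractile genes differed by at most 1.19-fold between the arrays. None of the 9 was 1.5-fold higher or lower, against backgrounds of 0.844% (98 genes) and 0.534% (62 genes) of all genes past the filter, so a count of 0 among 9 genes is close to the background. None passed 1.3-fold either, where the backgrounds were 3.51% higher and 2.47% lower. Nor did any pass 2-fold (0.0775% higher, 0.0431% lower) or 3 robust SDs (1.53% higher, 0.697% lower). On the Mef2d-labelled array 7 of the 9 had lower values (Lmod1, Cald1, Tagln, Myh11, Actg2, Myl9 and Cnn1) and 2 had higher values (Smtn and Synpo2). Of all genes past the filter 51.7% were below 0, and the count among the 9 was not tested against that share. The differences of the 9 genes ran from -0.25 to 0.17, and their median was -0.09. Of all genes past the filter 8.07% were at least as low as Lmod1 and 8.52% as Cald1. For Tagln that share was 10.6% and for Myh11 11.3%, while 15.6% were at least as high as Synpo2. With only the 7 genes at or above the median level of named genes, which leaves out Lmod1 and Myh11, the median was -0.06. In bulk RNA a lower share of smooth muscle-like cells and less RNA per cell cannot be told apart.

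**Figure D1:**
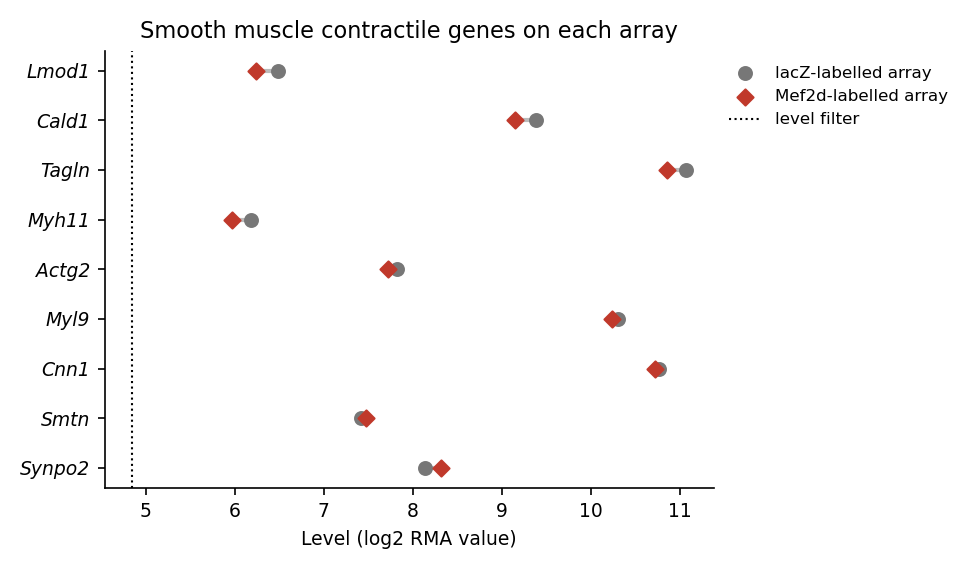
Levels (log2 RMA values, horizontal axis) of the 9 measured smooth muscle contractile genes on the lacZ-labelled array (grey circles) and the Mef2d-labelled array (red diamonds), ordered by their difference, with the level filter as a dotted line. The diamond lies left of the circle for 7 genes and right of it for Smtn and Synpo2; the level of one gene cannot be set against that of another, because each has its own probes.

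The motor genes of the contractile apparatus come first. Myh11, the smooth muscle myosin heavy chain and the most restricted marker of the lineage, had a level of 6.18 on the lacZ-labelled array and 5.97 on the Mef2d-labelled array. That is a difference of -0.21, or 1.16-fold lower, and 0.93 robust SDs below the centre of genes of similar level (robust SD 0.21). The gene lies 1.22 above the filter on the log2 scale, nearest to it of the 9. Myl9, a regulatory light chain of smooth muscle and nonmuscle myosin, had levels of 10.30 and 10.24, a difference of -0.06. Of all genes past the filter 70.8% were at least as far from 0 as Myl9.

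Among the filament genes, Actg2, the gamma smooth muscle actin best known from the gut wall, had levels of 7.82 on the lacZ-labelled array and 7.72 on the Mef2d-labelled array, a difference of -0.09. The other actin genes with a probe set lay in the same narrow range. Acta1, the skeletal muscle actin, differed by -0.07, and Actc1, the cardiac actin, by -0.03. Actb, the cytoplasmic beta actin, differed by 0.01, and Actg1 was not analysed here. Actins are close relatives, and how far the probes of one actin pick up another was not tested.

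Lmod1, leiomodin 1, which starts new actin filaments in smooth muscle, had the lowest difference of the 9. Its level was 6.48 on the lacZ-labelled array and 6.24 on the Mef2d-labelled array, a difference of -0.25 or 1.19-fold lower. That is 1.34 robust SDs below the centre, and 937 of the 11614 genes (8.07%) were at least as low.

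The genes of actin-binding regulators ran from lower to higher values. Tagln, transgelin or SM22-alpha, an early smooth muscle marker that bundles actin, had levels of 11.07 and 10.85, a difference of -0.22 or 1.16-fold lower. Genes of similar level scattered least of all bins, with a robust SD of 0.11, so Tagln lay 2.10 robust SDs below their centre, farther than any other of the 9. By the plain log2 difference, regardless of level, 1226 genes (10.6%) were at least as low as Tagln. Cald1, caldesmon, had levels of 9.38 and 9.14, a difference of -0.24 or 1.18-fold lower and 1.62 robust SDs below the centre. Cald1 makes a long form in smooth muscle and a short form in other cells, and 1 value per gene does not separate them.

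Cnn1, calponin 1, a late smooth muscle marker of the same protein family as transgelin, did not share that size of difference. It had levels of 10.76 on the lacZ-labelled array and 10.72 on the Mef2d-labelled array, a difference of -0.05. It fell in the same bin of similar level as Tagln and lay 0.51 robust SDs below the centre. Smtn, smoothelin, a marker of the fully contractile state, had levels of 7.41 and 7.47, a difference of 0.06. Synpo2, synaptopodin 2 or myopodin, an actin-binding protein of smooth muscle dense bodies and striated muscle Z-discs, had levels of 8.14 and 8.31. Its difference of 0.17, or 1.13-fold higher, was the highest of the 9 and lay 1.13 robust SDs above the centre.

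By this yardstick 3 of the 9 genes (Lmod1, Cald1 and Tagln) lay more than 1 robust SD below the centre, against 15.3% of all genes past the filter, and 1 (Synpo2) more than 1 above it, against 17.2%. The other 5 lay within 1 robust SD.

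**Figure D2:**
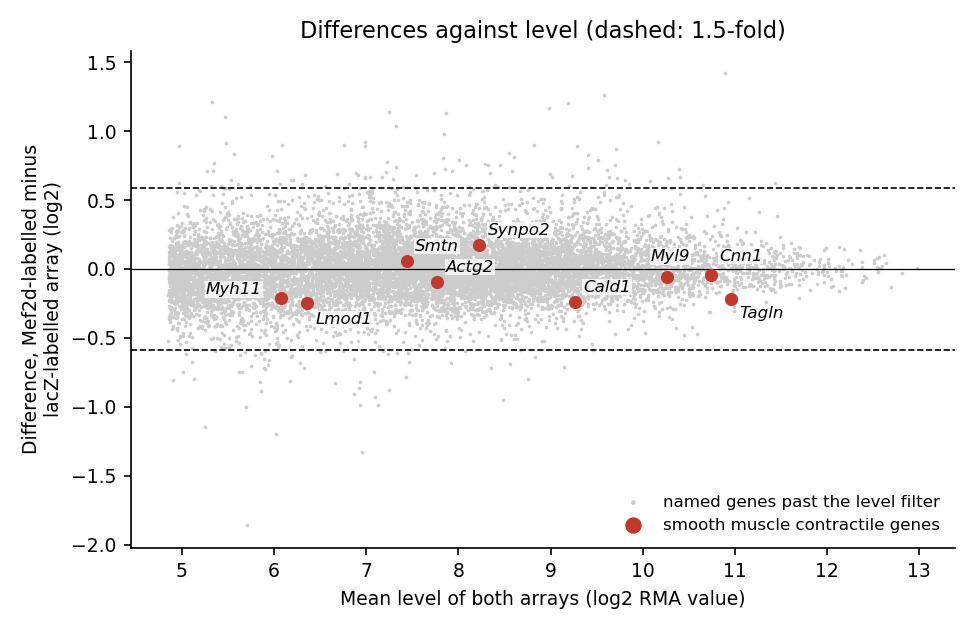
Difference between the arrays (log2, vertical axis) against the mean level of both arrays (log2 RMA value, horizontal axis) for the 11614 named genes past the level filter (grey) and the 9 smooth muscle contractile genes (red). All 9 lie between the dashed lines at 1.5-fold, and the grey cloud narrows at high levels, where Tagln lies nearer to its lower edge than Cnn1.

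The factors that drive the smooth muscle programme had nearly equal levels on both arrays. Srf had levels of 9.37 on the lacZ-labelled array and 9.39 on the Mef2d-labelled array, a difference of 0.02. Myocd, the gene of myocardin, had levels of 10.17 and 10.18, a difference of 0.01. Mkl1, which encodes myocardin-related transcription factor A, differed by -0.05, and Mkl2 was not analysed here. Of 14 measured genes in the list of SRF, myocardin and other regulators, 7 were below 0 and 7 above, with a median of -0.02 and none past 1.5-fold. Klf5, a zinc finger factor active in immature smooth muscle, had the lowest value (-0.20), followed by Foxo4, a forkhead factor that represses myocardin (-0.08). Tead1, a factor that binds MCAT elements in muscle promoters, had the highest (0.24), followed by Heyl, a Notch target (0.22).

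Genes of smooth muscle contraction and signalling, among them genes of myosin phosphorylation and relaxation, ion channels and receptors, ran from -0.30 to 0.51. The list had 17 members past the filter, 10 below 0 and 7 above, with a median of -0.04 and none past 1.5-fold. Mrvi1, a target of cGMP-dependent kinase that restrains calcium release, had levels of 6.45 on the lacZ-labelled array and 6.15 on the Mef2d-labelled array, a difference of -0.30. Mylk, the myosin light chain kinase, had levels of 6.45 and 6.28, a difference of -0.17. At the other end stood Ppp1cb, the catalytic subunit of the phosphatase that acts on the myosin light chain. Ppp1cb had levels of 10.89 and 11.41, a difference of 0.51 or 1.43-fold higher, and 162 of the 11614 genes were at least as high. Though short of 1.5-fold, Ppp1cb lay 4.64 robust SDs above the centre of its bin. That is past the threshold of 3 robust SDs, which 1.53% of all genes past the filter passed on the higher side. Mrvi1, the lowest of the 17, lay 1.64 robust SDs below the centre of its own bin. Prkg1, the cGMP-dependent kinase that relaxes smooth muscle, had levels of 8.01 and 8.37, a difference of 0.36. Ppp1cb and Prkg1 are also expressed outside smooth muscle. How specific Mrvi1, Mylk and the rest of the list are to it was not tested.

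Paralogs and partners of the 9 genes had a median of -0.06 over 23 members past the filter, 15 below 0 and 7 above, and none passed 1.5-fold. The lowest were Myh10, a nonmuscle myosin heavy chain (-0.23), and Tes, a focal adhesion protein (-0.22). The highest were Synpo2l and Synpo. Synpo2l, a heart and skeletal muscle relative of Synpo2, had levels of 7.61 on the lacZ-labelled array and 8.06 on the Mef2d-labelled array, a difference of 0.45. Synpo, synaptopodin, had levels of 7.46 and 7.79, a difference of 0.33.

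**Figure D3:**
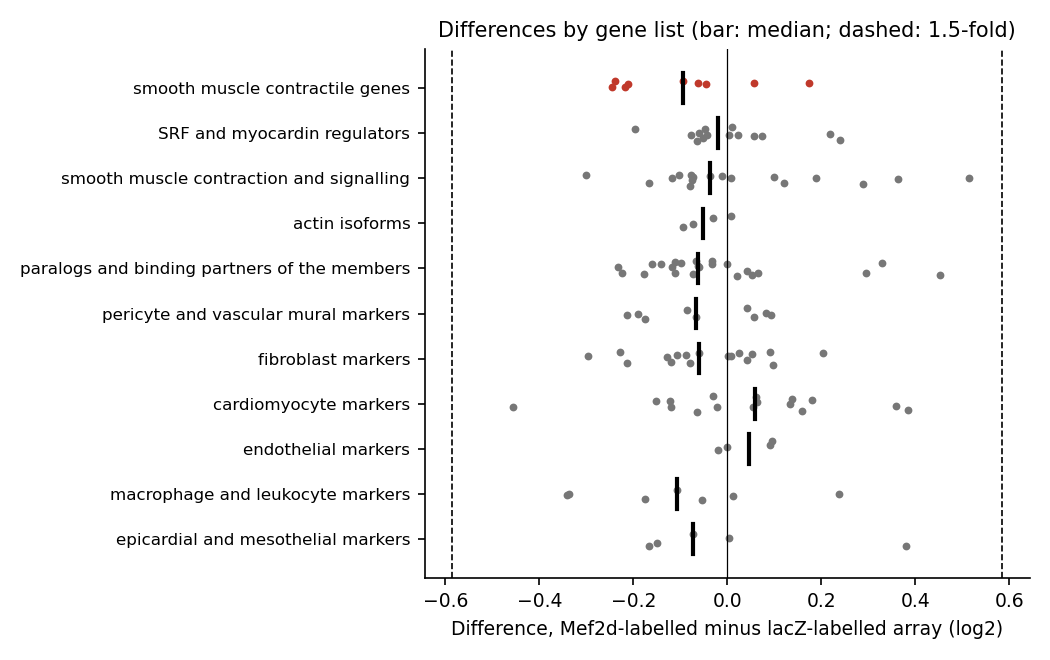
Difference between the arrays (log2, horizontal axis) for each gene past the level filter in the smooth muscle contractile set (red) and in 10 other lists (grey), with the median of each list as a black bar and 1.5-fold as dashed lines. No gene shown passes 1.5-fold, and the smooth muscle genes (median -0.09) span -0.25 to 0.17, inside the span of the fibroblast markers (-0.30 to 0.20).

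Markers of the cells that could supply smooth muscle transcripts were set beside these values. Of 11 pericyte and vascular mural markers with a probe set, 9 passed the filter, 5 below 0 and 4 above, with a median of -0.07. The unlogged levels of all 11 summed to 10267 on the lacZ-labelled array and 10042 on the Mef2d-labelled array, a ratio of 0.978. Des, the gene of desmin, which heart muscle also expresses strongly, made up 54.9% of that sum, and without it the ratio was 1.01. Rgs4 (-0.21) and Kcnj8 (-0.19) were lowest and Notch3 (0.09) and Rgs5 (0.08) highest. Higd1b and Vtn were under the level filter. Of 18 fibroblast markers 17 passed, 9 below 0 and 8 above, with a median of -0.06. The unlogged levels of all 18 summed to 38600 and 38682, a ratio of 1.00. The 3 brightest genes (Vim, Fn1 and Col1a1), which other cells also express, made up 41.1% of the sum. Fbln1, a matrix glycoprotein, was lowest (-0.30) and Pdgfra, a growth factor receptor of fibroblasts, next (-0.23), while the matrix proteoglycan genes Ogn (0.20) and Dcn (0.10) were highest. For comparison, the 9 smooth muscle contractile genes summed to 6646 and 6141, a ratio of 0.924, and to a ratio of 0.955 without Tagln, their brightest probe set. Such sums add the levels of different probes and follow the brightest of them. The part of either cell type in the differences of the smooth muscle genes was not tested.

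All 16 markers of the labelled cell type, the cardiomyocyte, had mean levels between 8.48 and 12.81 and so passed the filter, as 11614 of 16592 named genes did. Their median difference was 0.06. Myh7 (0.39) and Tnni3 (0.36) were highest and Myh6 (-0.46) and Mybpc3 (-0.15) lowest. By the yardstick of robust SDs, Myh7 lay 3.46 above the centre of its bin, past the threshold of 3. Myh6 lay 2.89 robust SDs below the centre of its own bin, short of that threshold. Of 9 macrophage and leukocyte markers with a probe set, 7 passed, 5 of them below 0, with a median of -0.11. The unlogged levels of all 9, with Cd74 and Itgam under the level filter included, summed to 1626 and 1458. That is a ratio of 0.897, and the ratio was 0.963 without Lyz2, the brightest. The part of these cells in the smooth muscle differences was not tested either. Lyz2 and Ptprc were lowest (-0.34 each) and Tyrobp highest (0.24), followed by Csf1r (0.01). Of 8 epicardial and mesothelial markers 5 passed the filter. Their median was -0.07, from Wt1 (-0.17) and Krt19 (-0.15) to Tbx18 (0.00) and Msln (0.38). The others were under the level filter, namely Bnc1 (0.11), Krt8 (-0.50) and Upk3b (0.68, or 1.61-fold higher). The endothelial markers Pecam1 (-0.44), Cdh5 (-0.18), Emcn (-0.20), Tie1 (-0.26) and Vwf (0.04) were all under the level filter. The remaining 4 had a median of 0.05 and ran from Esam (-0.02) to Egfl7 (0.09) and Tek (0.10).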

How the data were processed

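The authors deposited log2 values, for which the submitters' processing notes name RMA and affy 1.36.1. Not given in the sources used here are what each tool did, how probe sets were defined and the genome build. RMA gives no detection call and compresses differences of dim probe sets. All 19239 probe sets on both arrays were read, and every value column was used. The platform annotation names 16592, with 1 probe set per symbol, and the gene identifier of all 9 members led to the same symbol in the RefSeq table. Coordinates are printed only for RefSeq promoter sequences (GRCr8).

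Differences were taken between the deposited values without further scaling (Python 3.11.15, pandas 2.3.3). The robust SD (1.4826 times the median absolute deviation) was taken in 20 bins of equal numbers of genes and ranged from 0.11 to 0.21. The number of arrays limits the precision. The members, the 10 other lists and the rule for named genes (all members, 4 SRF factors, the actins, Mef2d, and the 2 most extreme genes in each direction per list) were chosen with earlier results of these data known. The calculations were tested on simulated data. Alternatives were 3 other scalings, other level filters and thresholds, the mean, and matching by gene identifier.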

Additional observations from a re-analysis of the deposited data

How the results depend on the processing

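On the deposited values no smooth muscle contractile gene passed the threshold at 1.3-fold, 1.5-fold, 2-fold or 3 robust SDs. At 1.5-fold none passed under centring on the median, quantile normalization or subtraction of a loess (span 0.3), or with any level filter tried. The other thresholds were not run under those scalings and filters. A gene short of 1.3-fold is also short of 1.5-fold and 2-fold, and a level filter leaves each difference as it is. None of the 9 differences changed sign under the 3 scalings, and the largest move was 0.03. Matching by gene identifier names other genes only and cannot change these 9 differences. Their median lay between -0.10 (quantile normalization) and -0.06 (level filter at the median, 7 genes), and the mean was -0.10. The median of all genes moved by at most 0.01. Of 60 medians of other lists under the alternatives, 2 changed sign. The endothelial list was at -0.02 without a level filter, and the contraction and signalling list at 0.01 with the filter at the median. A move counted as small when it was under the robust SD, for lack of a replicate error. No paired analysis was possible because there is only 1 array for each condition, and no replicate could be left out.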

Other observations

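Matching by gene identifier named 3 further genes of the contraction and signalling list, chosen here after their values were seen. With them the median of that list was -0.06, against -0.04 without them. Itga8, the alpha 8 integrin of smooth muscle and other contractile cells, had a level of 8.05 on the lacZ-labelled array and 7.69 on the Mef2d-labelled array, a difference of -0.36. That is farther from 0 than any of the 9 smooth muscle contractile genes. Myl12a, a regulatory light chain related to Myl9, had levels of 11.10 and 10.99, a difference of -0.11. Ednra, an endothelin receptor of vascular smooth muscle, had levels of 8.43 and 8.41.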
